A study of Mus musculus with 12 samples.

Results

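The intervertebral disc joins a gel-like core, the nucleus pulposus (NP), to a fibrous ring, the annulus fibrosus (AF). The NP and AF were set against each other in mice with 1 functional copy of the TonEBP gene, using 3 NP arrays and 3 AF arrays, 6 of the 12 arrays of the series. All 6 samples carried the TonEBP +/- genotype on the C57BL/6 background and came from lumbar discs, L1 to S1, of 12-month-old mice. Each sample was the pooled tissue of 1 animal, per the labels, which do not tie an NP sample to an AF sample of the same mouse. The other 6 arrays, 3 NP and 3 AF of wild-type (WT) C57BL/6 mice of the same age, entered the fit for the estimate of spread and for the comparison of genotypes. Because both tissues carried the same genotype, the NP against AF difference is a difference between tissues and says nothing by itself about the loss of a copy.

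TonEBP, encoded by Nfat5, is the transcription factor through which cells answer high osmolarity. It drives genes for the uptake and synthesis of small organic osmolytes and for heat shock proteins. The NP descends from the notochord. Its large cells make aggrecan, whose charged chains draw in water, and live without blood vessels at low oxygen, relying on glycolysis. The AF descends from the sclerotome. Its lamellae are built on type I collagen, and its outer rim lies next to bone, ligament and the cartilaginous endplate.

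Values are the deposited log2 signals minus the median of their array, so 0 is the middle cluster of an array and a step of 1 is a doubling. A transcript cluster is the array's unit for 1 gene. Differences are NP minus AF. AF arrays had medians of 7.43 to 7.61 and interquartile ranges of 2.40 to 3.11 log2, and NP arrays medians of 6.82 to 6.83 and interquartile ranges of 3.66 to 3.80. The tissues therefore differed in scale as well as in level. AF array 3 stood apart, with the widest AF range, and correlations between AF replicates were 0.942 to 0.969, against 0.985 to 0.988 between NP replicates. A cluster was taken as above background on an array when it passed the 95th percentile of 23 background probe sets. Where a tissue had 0 of 3 arrays above background, a difference is given as a lower bound against that tissue's background level ("at least"). Where neither tissue had an array above background, a gene is said to be at background and no difference is read. No probe set's level is compared with another's.

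Nfat5 itself, the gene with 1 copy lost, read 1.40, 1.33 and 1.31 on the AF arrays and 2.24, 2.79 and 2.26 on the NP arrays. The NP arrays lay above the AF arrays without overlap. The difference was 1.09 log2 (SE 0.41, limma adjusted p = 0.0325), but 0.39 after quantile normalization of the arrays (adjusted p = 0.534) and not called under the other 2 scalings either, so the call depends on the scaling. In WT mice it was 0.72 (adjusted p = 0.131), and the change of the difference with genotype was 0.37 (SE 0.58, adjusted p = 0.84). Its mean was 1.17 (SD 1.13, n = 3) in WT and 1.34 (SD 0.045) in TonEBP +/- for AF, and 1.89 (SD 0.40) and 2.43 (SD 0.31) for NP. The level was thus not lower in the libraries labelled TonEBP +/-, in either tissue, with overlapping arrays. The sources used here do not say which exons were deleted or which ones the probe set reads, so these values check nothing about the labels.

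Of 22206 clusters, 12478 differed between the tissues (limma, adjusted p under 0.05, 56.2%), and 13611 had an unadjusted p under 0.05. Among them 6854 (30.9%) were higher in NP and 5624 (25.3%) higher in AF. A stricter test, limma's treat for a difference beyond 2-fold, called 4584 (20.6%), with 3334 (15%) higher in NP and 1250 (5.63%) in AF. The share higher in NP among these was 72.7%, but 38.5% with the values as deposited, 56.7% with arrays scaled to a common interquartile range and 58.4% after quantile normalization. The median difference over all clusters was -0.06 as analysed and -0.75 as deposited. Over the 10642 clusters above background on all 3 arrays of a tissue it was 0.85, and 0.16 after quantile normalization, so list medians near these values do not stand above those of measured clusters. Interquartile scaling shrank the differences of bright NP-high genes, for example from 5.58 to 2.38 for Acan, from 5.13 to 2.58 for Sox9 and from 4.70 to 2.59 for Vegfa. Which tissue has more of the larger differences is thus set by the scaling. Counts of list members below are therefore of those past the 2-fold test in the same direction under all 4 scalings, a rule added after seeing the data. It holds for 2617 clusters (11.8%), 1536 (6.92%) higher in NP and 1081 (4.87%) in AF, and without AF array 3 for 1647 (7.42%) and 1016 (4.58%). In whole tissue, fewer cells of a type and less RNA per cell cannot be told apart.

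The NP arrays carried the marker genes of notochord-derived cells far above the AF arrays. Of 17 measured NP and notochord genes, 10 were higher in NP under the 4-scaling rule (6.92% of all clusters) and 0 higher in AF, with a median difference of 5.93 against -0.06 over all clusters. The keratins of simple epithelia, which make the intermediate filaments of notochordal cells, led the list. Krt19 read -0.52, -1.36 and 0.65 in AF and 10.87, 10.63 and 10.39 in NP. Its difference was 11.04 (SE 0.64, adjusted p = 8.97e-10), with 1 of 3 AF arrays above background. Krt8 read -0.48, 0.21 and 0.56 in AF and 10.12, 10.24 and 10.51 in NP, a difference of 10.19 (SE 0.45). Krt18, the partner of Krt8, differed by 8.48, also with 1 of 3 AF arrays above background. All 3 keratins were thus near background in AF and far above it on each NP array.

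Lgals3, a galectin that NP cells make, read 3.91, 2.78 and 4.63 in AF and 12.27, 12.52 and 12.50 in NP, a difference of 8.65 (SE 0.56, adjusted p = 3.33e-09). Car3, a cytosolic carbonic anhydrase, read 5.18, 6.05 and 6.72 in AF and lay within 0.02 of the array's highest value on all 3 NP arrays, so its difference of 7.12 is a lower bound. The BMP and Wnt antagonist Sostdc1 differed by 6.19, and the adhesion molecules Cdh2 (N-cadherin) and Ncam1 by 5.98 and 5.93. Shh, the signal that the notochord secretes, read 0.67, 1.01 and 0.28 in AF and 3.59, 4.50 and 4.08 in NP (difference 3.40, SE 0.28, 2 of 3 AF arrays above background). In contrast to these effector genes, the regulators of notochord identity gave little signal. Foxa1 and Foxa2 were at background in both tissues, Noto did not pass (-0.41, adjusted p = 0.185, but lower in NP as deposited, adjusted p = 0.00168), and Tbxt was not analysed here. Cd24a, a surface glycoprotein used to sort NP cells, differed by 3.36, but by 0.27 under interquartile scaling (adjusted p = 0.547).

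**Figure D1:**
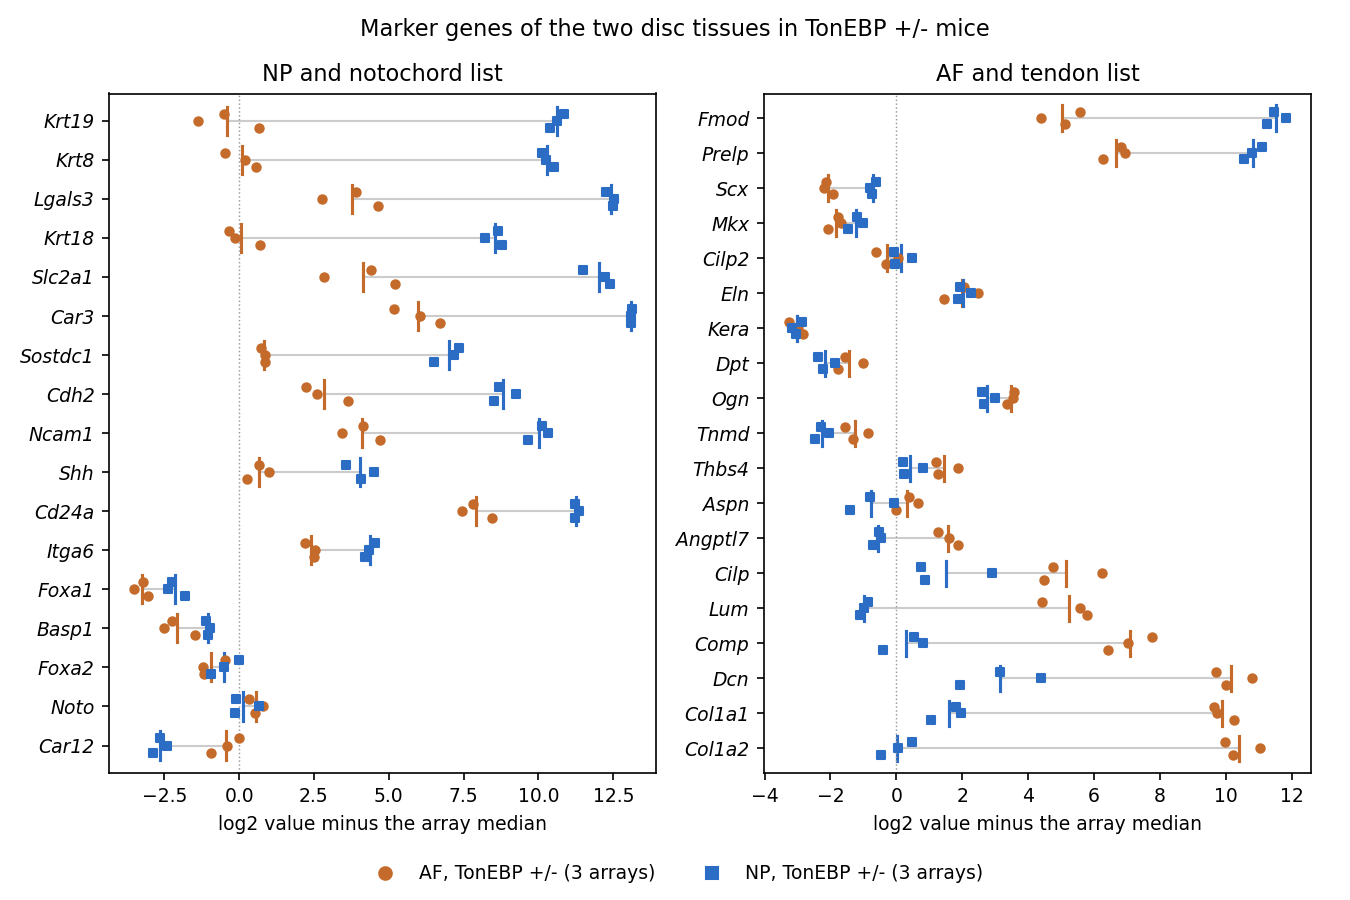
Log2 value minus the array median (horizontal axis) of each measured NP and notochord gene (left, 17 genes) and AF and tendon gene (right, 19 genes), with the 3 AF arrays as circles, the 3 NP arrays as squares and the group means as ticks, all from TonEBP +/- mice. Krt19, Krt8 and Krt18 lie near 0 in AF and at 8.22 to 10.87 in NP, whereas Fmod and Prelp, listed as AF genes, lie higher in NP.

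The AF arrays were marked by type I collagen. Col1a1 read 9.65, 9.72 and 10.23 in AF and 1.81, 1.96 and 1.04 in NP, a difference of -8.26 (SE 0.66, adjusted p = 3.30e-08). Col1a2, the second chain, read 9.98, 11.03 and 10.22 in AF and 0.46, 0.06 and -0.48 in NP (-10.39, SE 0.70, 1 of 3 NP arrays above background). Decorin (Dcn), a small proteoglycan that binds collagen fibrils, read 9.69, 10.80 and 10.00 in AF and 3.14, 4.39 and 1.93 in NP (-7.01, SE 0.91). Every AF array lay above every NP array for these 3 genes. Comp, a cartilage and tendon glycoprotein, differed by -6.77, Cilp by -3.65, and Lum (lumican) was at least 4.89 higher in AF.

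Of the 19 measured AF and tendon genes, 7 were higher in AF under the 4-scaling rule (4.87% of all clusters) and 1 in NP. That 1 is Fmod (fibromodulin), a fibril-binding proteoglycan, at 5.56, 4.39 and 5.12 in AF and 11.45, 11.83 and 11.25 in NP, a difference of 6.48 (SE 0.29, adjusted p = 6.25e-11). Prelp, a proteoglycan of the same family, went the same way: 6.82, 6.95 and 6.26 in AF and 11.08, 10.78 and 10.56 in NP (4.13, and 2.93 after quantile normalization), but under interquartile scaling it differed by 1.24 and was not called (adjusted p = 0.222). Among these small leucine-rich proteoglycans, Dcn and Lum were high in AF and Fmod in NP under each scaling. The tendon transcription factors Scx and Mkx and the tendon membrane protein Tnmd were at background in both tissues, so the label of the AF rests on its matrix genes and not on these regulators.

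Many marker genes of bone and marrow cells were also higher in AF, and the part of such cells in other AF-high differences was not tested. All 14 neutrophil and myeloid precursor markers were higher in AF under the 4-scaling rule, with a median of -6.13. Mpo, the peroxidase of neutrophil granules, read 11.18, 10.92 and 11.53 in AF and 3.44, 1.99 and 4.28 in NP (-7.97, SE 0.44, adjusted p = 5.92e-10). The granule protease Elane differed by -7.67, the chitinase-like Chil3 by -7.58, and the antimicrobial peptide gene Camp was at least 8.25 higher in AF. The mean of the 14 markers was 8.54 to 9.43 on the AF arrays and 1.75 to 3.35 on the NP arrays.

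Red cell genes behaved alike: 5 of 7 erythroid genes were higher in AF, with list means of 3.93 to 4.90 in AF and 0.89 to 1.03 in NP. The anion exchanger Slc4a1 read 8.86, 7.76 and 8.11 in AF and 2.24, 2.07 and 2.12 in NP (-6.10, SE 0.42). Jchain, the joining chain of antibodies, was at least 6.10 higher in AF and led the 5 of 11 B and plasma cell genes that passed. Lyz2, the lysozyme of myeloid cells, differed by -7.66, with 6 of 13 macrophage markers higher in AF. Among T and NK cell markers 3 of 9 passed, led by Nkg7, a granule membrane gene, at least 1.96 higher in AF.

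Bone-forming and bone-resorbing genes followed. Ibsp, bone sialoprotein, read 8.69, 7.88 and 9.08 in AF and -0.84, -1.09 and -1.02 in NP, at least 8.20 higher in AF (adjusted p = 1.11e-11). Acp5, the acid phosphatase of osteoclasts, read 7.78, 6.44 and 9.70 in AF and -1.17, -1.57 and -1.63 in NP, at least 7.62 higher. Both genes were above background on each AF array and on no NP array. Osteocalcin (Bglap) was at least 4.75 higher in AF and Atp6v0d2, a proton pump subunit of osteoclasts, at least 4.38. Of 13 mineralisation and osteoblast genes 8 were higher in AF, and of 8 osteoclast genes 4.

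Proliferation and vessel genes moved with them. All 15 cell cycle genes were higher in AF (14 without AF array 3), among them Mki67 at 9.44, 9.54 and 10.35 in AF and 2.41, 1.90 and 2.82 in NP (-7.40, SE 0.39, adjusted p = 3.60e-10). The ribonucleotide reductase subunit Rrm2 differed by -5.25. Endothelial markers were higher in AF for 6 of 11 genes, led by Cdh5, the cadherin of endothelial junctions, at least 2.05 higher. The adipocyte gene Fabp4 was at least 3.10 higher in AF, 1 of 2 adipocyte genes of 8 that passed (1 of 8 without AF array 3). Skeletal muscle markers gave 0 of 18 past the rule, and 15 were at background in both tissues. Across 10 Schwann cell and neuron markers only Pmp22, which many cell types express, passed, and it was higher in NP (6.16). The neutrophil, osteoclast, cell cycle and endothelial means were each highest, among AF arrays, on array 3. The part of these cells in the AF-high differences of other lists was not tested.

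**Figure D2:**
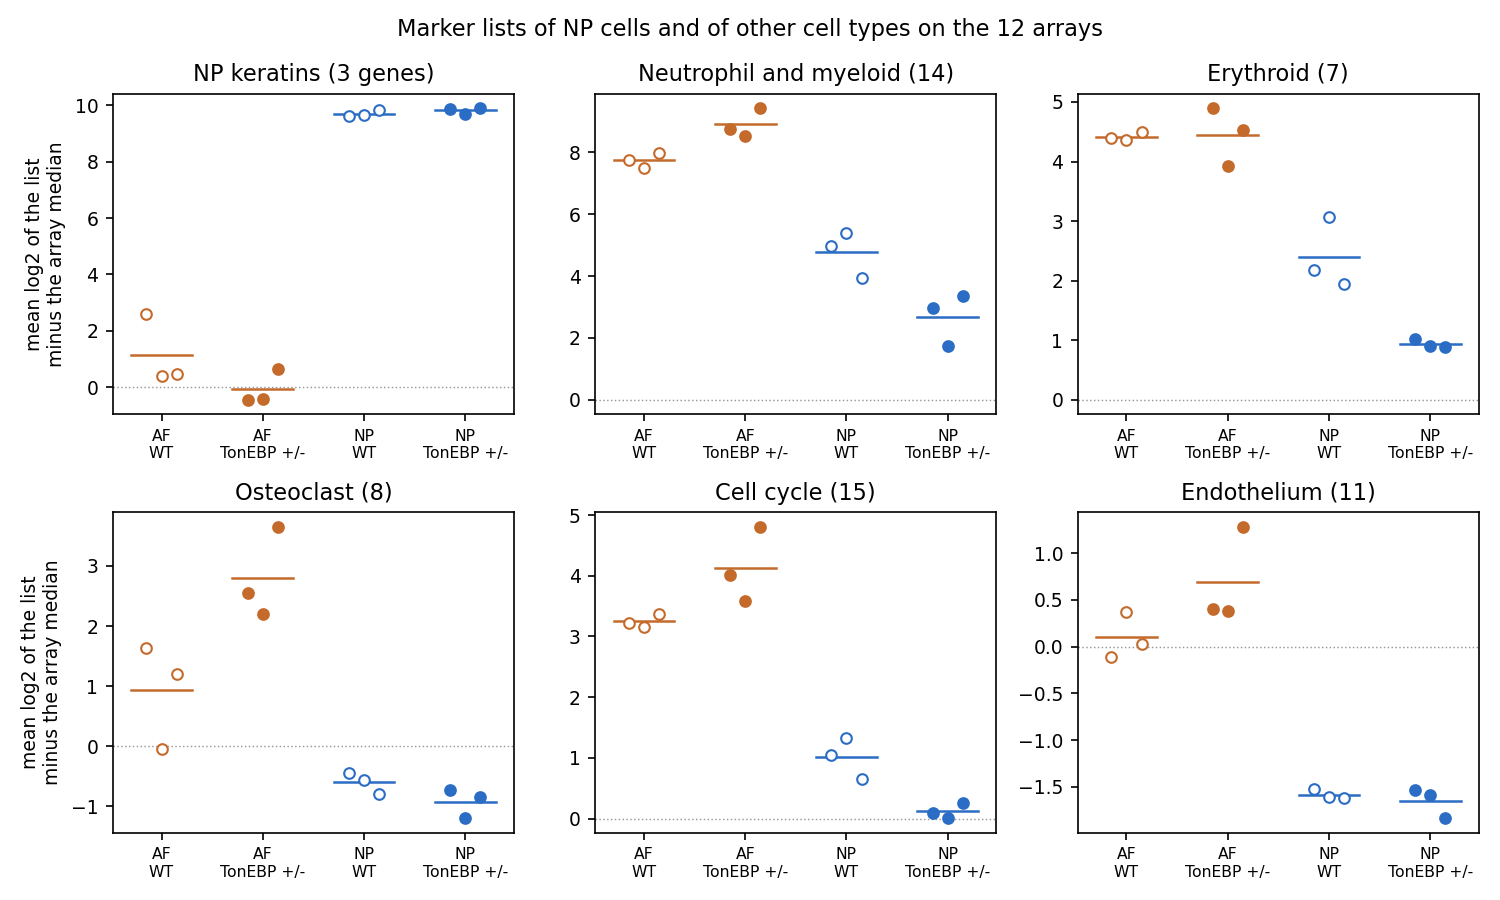
Mean log2 value minus the array median (vertical axis) of 6 marker lists on each of the 12 arrays, with open circles for WT, filled circles for TonEBP +/- and bars for the group means. In TonEBP +/- mice the NP keratins lie at 9.70 to 9.90 in NP and -0.44 to 0.64 in AF, and the neutrophil list at 1.75 to 3.35 in NP and 8.54 to 9.43 in AF.

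Many genes that respond to low oxygen were higher in NP. Cells sense oxygen through prolyl hydroxylases, which mark the subunit HIF-1 alpha for destruction by VHL. When oxygen is short, HIF binds a short DNA core near its targets, among them the hydroxylases themselves. The core is ACGTG or GCGTG, and only ACGTG was searched. Of 25 measured genes of this list, 21 were called higher in NP (30.9% of all clusters) and 0 higher in AF (25.3%). Under the 4-scaling rule 12 were higher in NP, with a median difference of 2.54. The promoters of 6 NP-high genes are shown as examples, picked because they have a match to ACGTG. They are the oxygen sensors Egln3 (chr12:54203875-54204124, minus strand) and Egln1 (chr8:124949255-124949504, minus), the mitophagy gene Bnip3 (chr7:138909507-138909756, minus), the glycolytic kinase Pgk1 (chrX:106186850-106187099, plus), the glucose transporter Slc2a1 (chr4:119108495-119108744, plus) and the collagen prolyl hydroxylase P4ha1 (chr10:59323046-59323295, plus). Each line holds the 250 bases before the first listed RefSeq start on GRCm38.p6, 5′ to 3′ on the gene's strand, with ACGTG or its reverse complement in capitals.
Egln3: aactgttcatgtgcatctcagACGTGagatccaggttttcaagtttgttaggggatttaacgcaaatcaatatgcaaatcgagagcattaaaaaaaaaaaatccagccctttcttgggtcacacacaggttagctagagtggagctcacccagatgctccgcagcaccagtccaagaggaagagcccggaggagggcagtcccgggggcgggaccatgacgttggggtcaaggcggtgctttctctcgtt
Egln1: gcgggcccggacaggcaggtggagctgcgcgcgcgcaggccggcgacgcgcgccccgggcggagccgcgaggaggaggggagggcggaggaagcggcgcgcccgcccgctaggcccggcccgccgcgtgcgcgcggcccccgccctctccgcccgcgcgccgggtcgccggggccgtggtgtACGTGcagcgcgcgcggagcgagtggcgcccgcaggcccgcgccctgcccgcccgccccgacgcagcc
Bnip3: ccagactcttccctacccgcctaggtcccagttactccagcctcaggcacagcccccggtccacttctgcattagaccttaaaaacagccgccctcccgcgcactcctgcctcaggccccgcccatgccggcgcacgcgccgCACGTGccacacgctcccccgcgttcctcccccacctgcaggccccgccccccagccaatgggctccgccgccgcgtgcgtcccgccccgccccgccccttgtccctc
Pgk1: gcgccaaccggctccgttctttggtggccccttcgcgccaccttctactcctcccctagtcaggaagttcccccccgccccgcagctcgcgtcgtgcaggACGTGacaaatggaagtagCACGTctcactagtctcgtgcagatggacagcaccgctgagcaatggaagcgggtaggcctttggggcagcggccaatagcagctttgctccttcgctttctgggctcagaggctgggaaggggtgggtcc
Slc2a1: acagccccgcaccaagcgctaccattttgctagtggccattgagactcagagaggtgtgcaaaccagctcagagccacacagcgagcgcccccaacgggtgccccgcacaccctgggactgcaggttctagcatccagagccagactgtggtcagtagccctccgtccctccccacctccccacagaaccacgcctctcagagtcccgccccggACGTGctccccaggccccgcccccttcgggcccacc
P4ha1: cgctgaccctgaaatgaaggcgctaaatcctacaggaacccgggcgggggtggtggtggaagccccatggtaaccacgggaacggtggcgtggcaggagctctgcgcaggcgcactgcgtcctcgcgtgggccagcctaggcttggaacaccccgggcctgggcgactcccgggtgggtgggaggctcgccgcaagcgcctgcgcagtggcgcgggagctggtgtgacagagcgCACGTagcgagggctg

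The match lay 229 bases before the start in Egln3, 68 in Egln1, 36 in Slc2a1 and 16 in P4ha1. Bnip3 has 1 palindromic stretch that matches on both strands, and Pgk1 has 2 separate matches. Other genes of these lists that were higher in NP under the 4-scaling rule had no match to ACGTG in their 250 bases. Among them were Vegfa, Pfkl, Tpi1, Aldoc, Pfkp, Pdk1, Adm and Higd1a. Because GCGTG was not searched, these promoters are not shown to lack the core. Over 300-base windows, which add 50 bases after the start, ACGTG was found in 11 of 20 promoters (55.0%) of the oxygen list and in 11 of 24 (45.8%) of the glycolysis list. It was found in 25.7% of promoters of all genes higher in NP under the 4-scaling rule, 19.1% of those higher in AF and 21.4% of all 15691 promoters matched. A match is a string of letters and not a shown binding site, and 15.4% of genes have several starts, of which 1 was read.

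Among the sensors, Egln3 read 0.82, 0.84 and 1.74 in AF and 7.76, 8.16 and 8.46 in NP, a difference of 6.99 (SE 0.35, adjusted p = 2.13e-10). Egln1, the main hydroxylase of HIF-1 alpha, read 1.83, 1.49 and 2.47 in AF and 7.69, 7.64 and 7.84 in NP (5.79, SE 0.26). The NP arrays lay above all AF arrays by a wide margin for both. The remaining hydroxylase gene Egln2 did not pass (0.24, adjusted p = 0.383), nor did Vhl (0.56, adjusted p = 0.0528). Hif1a itself differed by 2.54 (SE 0.29, adjusted p = 1.82e-06), with 4.24, 3.96 and 5.14 in AF and 6.89, 7.15 and 6.92 in NP, and by 1.17 after quantile normalization and 0.73 under interquartile scaling.

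Among the targets, Ndufa4l2, a mitochondrial protein that HIF induces, read 2.31, 1.97 and 2.84 in AF and 10.50, 10.85 and 10.50 in NP. Its difference of 8.25 (SE 0.27, adjusted p = 8.55e-12) was the largest of the oxygen list. Bnip3 read 0.83, 0.65 and 1.04 in AF and 7.28, 7.68 and 7.96 in NP (6.80, SE 0.26). The stress gene Ndrg1 differed by 6.80 and the repressor Bhlhe40 by 5.62. Vegfa, the growth factor that draws in vessels, read 4.55, 3.95 and 3.74 in AF and 8.28, 8.57 and 9.50 in NP (4.70, SE 0.37), while the endothelial gene Cdh5, named above, was at background in NP. The lowest member was Anxa1, an annexin also abundant in myeloid cells, at -0.78 (adjusted p = 0.0828). It was called higher in AF under the other 3 scalings, at -1.47 as deposited, -3.81 under interquartile scaling and -1.89 after quantile normalization.

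Glucose uptake and glycolysis genes were higher in NP in the same samples. Under the 4-scaling rule 11 of 26 were higher in NP (13 without AF array 3) and 0 in AF, with a median of 2.77. The glucose transporter Slc2a1 read 4.41, 2.82 and 5.21 in AF and 11.49, 12.23 and 12.39 in NP (7.89, SE 0.59, adjusted p = 1.67e-08). Pfkl, a subunit of the enzyme that commits glucose to glycolysis, read 2.23, 1.99 and 3.00 in AF and 8.64, 8.92 and 8.86 in NP (6.40, SE 0.31). Pgk1, which makes ATP in the pathway, read 4.11, 3.33 and 5.24 in AF and 9.84, 9.87 and 9.86 in NP (5.63, SE 0.41). The 3 NP arrays were nearly equal there (SD 0.02), while the AF arrays spread more (SD 0.96).

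Tpi1 differed by 5.97, Aldoc by 4.90 and Pfkp by 4.61, all 3 of them enzymes of the first steps. Ldha, which turns pyruvate into lactate, differed by 3.56 (SE 0.29), but by 0.60 under interquartile scaling (adjusted p = 0.131). Not every member was higher. Gapdh, often used as a reference gene, differed by 0.78 (adjusted p = 0.0129) and 0.09 in the values as deposited, and it was lower in NP under interquartile scaling (-2.85, adjusted p = 0.000123), so its direction depends on the scaling. The neuronal glucose transporter Slc2a3 did not pass (-0.82, adjusted p = 0.144), although it was called lower in NP under the other 3 scalings (-2.18 after quantile normalization, adjusted p = 0.00036). The lactate transporter Slc16a1 was lower in NP by a little (-0.81, adjusted p = 0.0177).

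**Figure D3:**
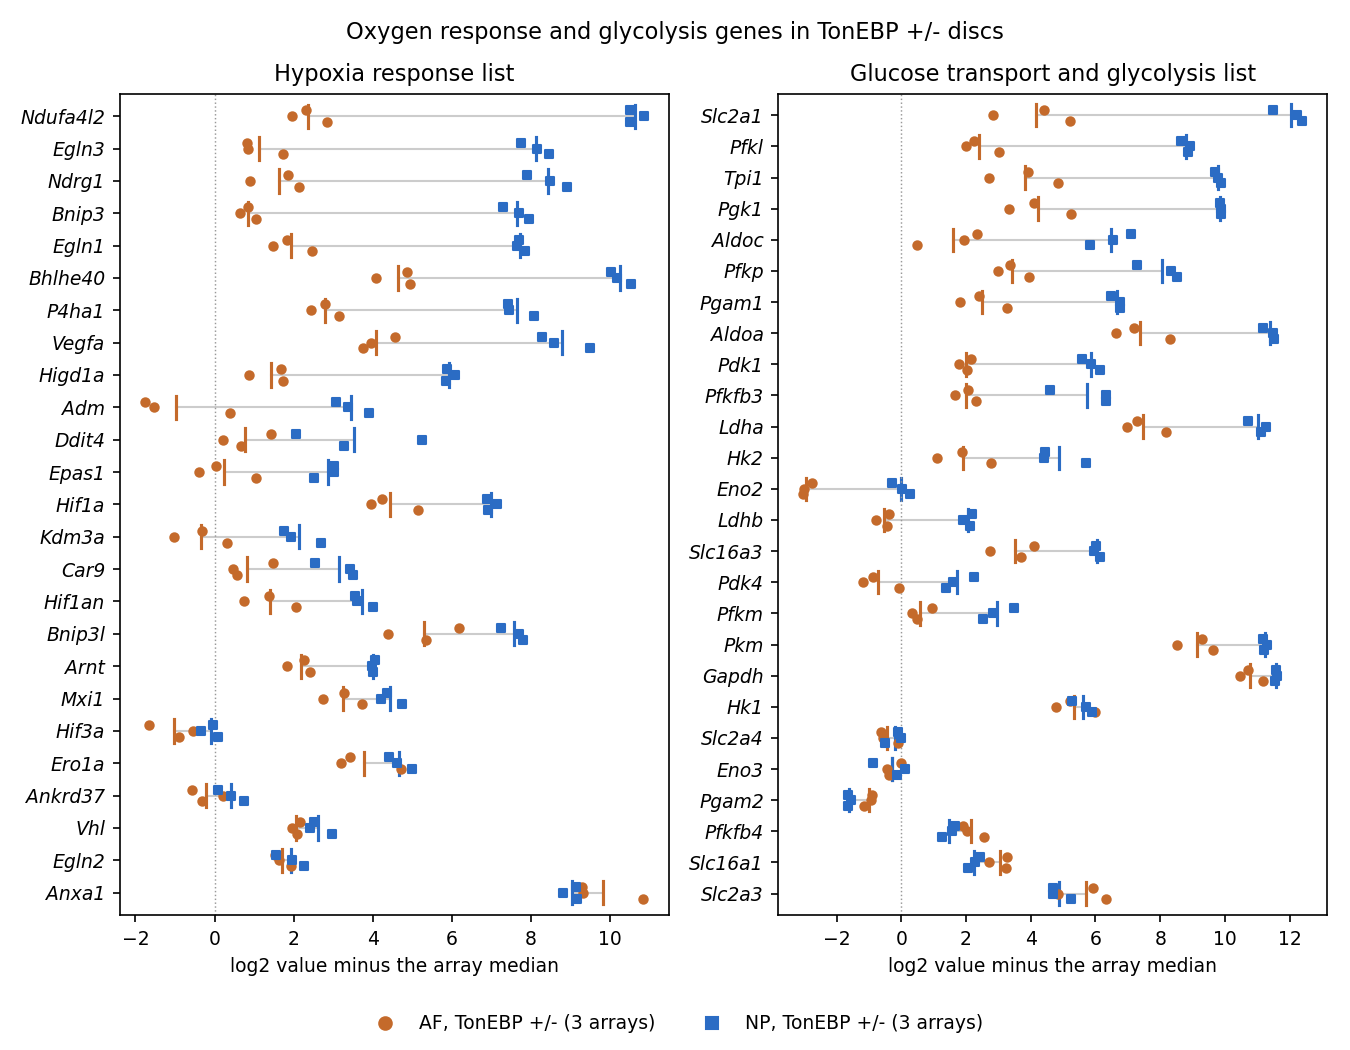
Log2 value minus the array median (horizontal axis) of 25 oxygen response genes (left) and 26 glucose transport and glycolysis genes (right) in TonEBP +/- mice, with AF arrays as circles, NP arrays as squares and group means as ticks. Ndufa4l2 lies at 1.97 to 2.84 in AF and 10.50 to 10.85 in NP, whereas the arrays of Egln2 (left) and Slc2a4 (right) overlap between the tissues.

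Respiratory chain genes gave a different picture. Although 17 of 34 were called higher in NP and 3 higher in AF, 1 passed the 4-scaling rule, and the list median was 0.71 as analysed but -0.11 after quantile normalization, below the medians of measured clusters given above. The direction of the list thus turns with the scaling. The 1 gene is Cox4i2, the low-oxygen isoform of a cytochrome c oxidase subunit, at -0.16, -0.34 and 0.19 in AF and 7.21, 8.29 and 7.90 in NP, at least 7.41 higher in NP (adjusted p = 4.09e-11). Its counterpart Cox4i1 differed by 1.42 (0.24 after quantile normalization).

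The osmotic and ion handling genes, which include direct TonEBP targets, were higher in NP for 8 of 25 members and higher in AF for 1. Slc12a2, the sodium, potassium and chloride cotransporter that restores cell volume after shrinkage, read 2.47, 1.90 and 3.55 in AF and 11.86, 11.69 and 11.47 in NP (9.03, SE 0.71, adjusted p = 3.06e-08). Slc6a12, the betaine transporter and a classic TonEBP target, read -0.60, -0.67 and -0.53 in AF and 5.74, 7.58 and 7.57 in NP. It was at least 6.57 higher in NP (adjusted p = 7.40e-10), above background on no AF array and on each NP array.

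Of the other osmolyte genes measured, the taurine transporter Slc6a6 differed by 2.22 (SE 0.28), by 0.80 after quantile normalization and by 0.14 under interquartile scaling (adjusted p = 0.779). Hspa4l, an osmotically induced heat shock gene, differed by 2.56 (SE 0.35, 2 of 3 AF arrays above background). The amino acid transporter Slc38a2 did not pass (0.07, adjusted p = 0.853) but was lower in NP after quantile normalization (-1.31, adjusted p = 0.00203). Akr1b3 and Slc5a3, which make and import osmolytes, were not analysed here. Of these 4 measured genes, Slc6a12, Slc6a6, Hspa4l and Slc38a2, only Slc6a12 met the 4-scaling rule.

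Ion pumps and channels added Atp1b3, a sodium pump subunit (4.60), the kinase Sgk1 (4.10), the chloride channel Ano1 (4.01) and the cotransporter Slc12a4 (3.16), all higher in NP. Lrrc8a, a volume-regulated anion channel subunit, and Scnn1a, a sodium channel subunit, completed the 8 and were at background in AF. The water channel Aqp1 ran the other way, at 5.01, 4.65 and 4.67 in AF and -0.29, -0.50 and 0.14 in NP, at least 4.42 higher in AF (adjusted p = 7.45e-11). Red cells and capillary endothelium, whose markers were AF-high above, also express Aqp1, and their part in this difference was not tested. Atp1b1, another sodium pump subunit, was also called higher in AF under each scaling (fitted difference -2.04 as analysed, -1.80 after quantile normalization). Atp1b1 did not meet the 4-scaling rule. A further subunit, Atp1b2, had a fitted difference of 1.58 as analysed but was not called as deposited (limma adjusted p = 0.0602). Atp1b3 and Atp1b1 thus differed in direction.

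Cartilage genes divided between the tissues. Of 27 measured, 4 were higher in NP and 5 in AF under the 4-scaling rule, with a median of -0.86. Aggrecan (Acan), the proteoglycan that holds water in the NP, read 7.24, 6.86 and 7.08 in AF and 12.63, 12.63 and 12.66 in NP (5.58, SE 0.21, adjusted p = 1.18e-11). Its regulator Sox9 read 5.93, 5.00 and 4.71 in AF and 9.97, 10.53 and 10.52 in NP (5.13, SE 0.40). Sox6, a cofactor of Sox9, differed by 4.54, and Snorc, a small transmembrane proteoglycan, by 4.60. The regulators and the aggregating proteoglycan were thus higher in NP. Hapln1, the link protein that ties aggrecan to hyaluronan, differed by 4.05, by 2.93 after quantile normalization and by 1.12 under interquartile scaling, where it was not called (adjusted p = 0.18).

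Col2a1, the main collagen of cartilage, read 3.19, 2.19 and 2.33 in AF and 3.96, 5.20 and 4.86 in NP (2.10, SE 0.62, adjusted p = 0.00913). After quantile normalization it differed by 1.00 and was not called (adjusted p = 0.274), nor was it under interquartile scaling. The AF-high members were matrix genes of hyaline cartilage, its surface and the endplate. Chondroadherin (Chad) read 10.16, 9.14 and 8.37 in AF and 2.31, 1.81 and 0.55 in NP (-7.67, SE 0.88, adjusted p = 1.81e-06). Prg4, the lubricant of joint surfaces, differed by -5.97, Clec3a by -5.40, and Cnmd (chondromodulin) was at least 5.56 higher in AF. AF values of Chad, Comp and Clec3a were highest on AF array 1.

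Fibrous matrix genes also went both ways, 8 of 32 higher in NP and 9 in AF. NP-high members were largely enzymes and subunits of collagen VI, which forms the fine network around the cell. The prolyl hydroxylases P4ha3, P4ha2 and P4ha1, which stabilise the collagen helix, differed by 7.12, 5.40 and 4.85, with 1 of 3 AF arrays above background for P4ha3. Col6a1 read 2.07, 2.45 and 2.71 in AF and 7.98, 8.06 and 8.25 in NP (5.69, SE 0.29), and the lysyl oxidase Loxl3 differed by 4.63. In AF, Tnc (tenascin C) read 7.46, 6.99 and 8.07, against -1.22, -0.26 and -1.07 in NP, at least 7.15 higher. Biglycan (Bgn) differed by -4.31, thrombospondin 1 (Thbs1) by -6.48, and the lysyl oxidase Lox was at least 3.18 higher in AF. Within the lysyl oxidase family the isoforms therefore differed in direction, Loxl3 high in NP and Lox in AF.

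Basement membrane genes and their receptors were higher in NP for 10 of 29 members and higher in AF for 2, with a median of 1.28. Of the 8 collagens among them 2 were higher in NP, 5 were at background in both tissues, and the median was -0.44. Lamb3, a laminin chain of epithelial basement membranes, read -0.59, -0.92 and -1.34 in AF and 7.15, 6.91 and 7.18 in NP, at least 6.68 higher in NP (adjusted p = 1.51e-11). The laminin receptor genes Bcam and Dag1 differed by 6.76 and 4.14, and the laminin chain Lama4 by 3.67. In AF the integrin Itga2, a collagen receptor, was at least 0.58 higher, a bound short of the 2-fold that its fitted difference passed.

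The junction genes of epithelia extend the keratin result. Desmosomes, which rivet keratin filaments to neighbouring cells, had 7 of 10 members higher in NP and 0 in AF. Desmoplakin (Dsp) read -0.05, -0.28 and 0.69 in AF and 8.87, 9.18 and 8.85 in NP (8.85, SE 0.33). Perp, a desmosome-associated membrane protein, differed by 9.41 and plakophilin 1 (Pkp1) by 7.37, each with 1 of 3 AF arrays above background. Keratins counted 6 of 10 higher in NP. Tight junction genes did not follow, with 0 of 11 higher in NP and 1, Cldn1, at least 0.90 higher in AF (0 without AF array 3). That bound, too, falls short of 2-fold. The epithelial cadherin Cdh1 and the epithelial surface marker Epcam were at background in both tissues, so no level is read for them.

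Enzymes that build glycosaminoglycan chains, the sulfated sugars of aggrecan, were higher in NP for 10 of 28 members (7 without AF array 3) and higher in AF for 1, with a median of 1.22. Xylt1, which starts each chain on the core protein, read 5.08, 4.00 and 3.96 in AF and 9.15, 9.22 and 9.08 in NP (4.80, SE 0.27, adjusted p = 6.51e-10). Ugdh, which makes the sugar precursor, differed by 5.08, Papss1, which makes the sulfate donor, by 4.80, and the chondroitin sulfotransferase Chst11 by 4.41. Successive steps from precursor to sulfation were therefore represented, but not by every enzyme. Of 10 sulfation genes, 4 were called higher in NP and 4 higher in AF under all scalings, without the 2-fold condition. In both tissues 2 of the 10 were at background. The chain enzyme Chsy1 was also called lower in NP under each scaling (-0.64 as analysed, -1.58 after quantile normalization). The 1 member higher in AF under the 4-scaling rule was Chst15, a sulfotransferase, at least 3.33 higher. It read 3.73, 3.51 and 3.81 in AF and -0.60, -0.38 and -0.05 in NP.

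Among proteases and their inhibitors, the metalloproteinases that passed were all higher in AF, whereas inhibitors passed in both directions. Of 12 inhibitors 3 were higher in NP and 2 in AF, with a median of -0.23. Of 8 metalloproteinases 0 were higher in NP and 5 in AF. Mmp13, a collagenase of bone and hypertrophic cartilage, read 7.77, 5.58 and 7.84 in AF and -2.22, -1.01 and -1.28 in NP, at least 6.71 higher in AF (adjusted p = 1.69e-09). Mmp9, a gelatinase of neutrophils and osteoclasts, differed by -7.30 and Mmp2 was at least 2.13 higher in AF. These proteases are also expressed by marrow and bone cells, whose markers were AF-high, and that part was not tested. Adamts4, Adamts5 and Mmp3 were at background in both tissues. In the whole list 5 of 35 were higher in NP and 8 in AF, and 5 and 5 without AF array 3.

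NP-high members were secreted serine proteases and inhibitors. Htra1 read 3.53, 3.94 and 4.45 in AF and 11.60, 11.70 and 11.71 in NP (7.70, SE 0.25, adjusted p = 8.55e-12), and its relative Htra3 was at least 5.00 higher in NP. The metalloproteinase inhibitors Timp3 and Timp2 differed by 6.71 and 5.17. Timp3 read 2.17, 0.75 and 2.02 in AF and 8.47, 8.37 and 8.25 in NP. Serpina1e, an antitrypsin gene, read 5.17, 4.93 and 3.93 in AF and 11.31, 11.58 and 11.20 in NP (6.69, SE 0.40), while its paralog Serpina1c differed by -3.54. These paralogs are near-identical and their probes can share signal, so the split between them is uncertain.

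In the Hedgehog pathway, 2 of 5 genes that process or release the ligand and 3 of 6 receptors and coreceptors were higher in NP. Disp1, which frees Shh from the producing cell, read 2.06, 1.38 and 2.34 in AF and 8.75, 8.84 and 8.96 in NP (6.92, SE 0.33, adjusted p = 1.25e-10). The coreceptors Cdon, Gas1 and Boc differed by 6.11, 4.29 and 2.94. Ptch1, the receptor that Hedgehog signalling induces, read 2.65, 1.73 and 2.55 in AF and 2.06, 2.51 and 2.91 in NP. Its groups overlapped and the difference was 0.19 (SE 0.60, adjusted p = 0.804). Scube1, another release gene, was at least 0.52 higher in AF, and the target and effector Gli1 at least 0.19, with 2 of 3 AF arrays above background. The inhibitor Hhip was at least 2.01 higher in AF, and Smo and Gli2 were at background in both tissues. In all, 6 of 19 members were higher in NP and 1 in AF.

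BMP and TGF-beta genes divided, 10 of 31 higher in NP and 5 in AF. Among the ligands, Tgfb1 read 6.75, 6.31 and 7.19 in AF and 2.57, 2.40 and 2.66 in NP (-4.21, SE 0.26, adjusted p = 2.14e-09), and Gdf10 was at least 2.10 higher in AF. Bmp5 was higher in NP by 4.89 and Bmp7 by at least 3.44. The ligands thus split by tissue. Twsg1, which binds BMPs outside the cell, read 2.65, 2.71 and 2.76 in AF and 9.36, 8.83 and 8.96 in NP (6.34, SE 0.25), and the latent TGF-beta binding protein Ltbp1 differed by 5.15. Of 6 target genes of these pathways, 4 were higher in NP, among them Id4 (6.13) and Id1 (4.73), which block differentiation factors.

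Wnt genes were at background in both tissues for 18 of 31 members, and 4 passed in each direction (3 without AF array 3). The antagonist Sfrp5 was at least 3.36 and the ligand Wnt16 at least 1.98 higher in NP, and the antagonists Wif1 and Frzb at least 3.51 and 1.32 higher in AF. Secreted antagonists were thus found high in each tissue, but different ones. Axon guidance and angiogenic genes were higher in NP for 7 of 20 members. Sema3b, a secreted repellent of axons, read 0.09, 0.27 and -0.11 in AF and 6.40, 6.14 and 6.31 in NP (6.20, SE 0.23), and the guidance ligand Slit3 differed by 6.18. Flt1, a VEGF receptor that also circulates as a soluble trap, was at least 3.99 higher in NP, whereas the endothelial VEGF receptor Kdr was at least 1.40 higher in AF.

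Of 10 smooth muscle genes 3 were higher in NP under the 4-scaling rule and 0 in AF, with a median of 0.25 (-0.06 after quantile normalization). Acta2, the smooth muscle actin, read 0.30, -0.36 and 0.73 in AF and 10.07, 9.61 and 9.75 in NP (9.59, SE 0.36, adjusted p = 1.51e-11, 1 of 3 AF arrays above background). Tagln (transgelin) was at least 6.34 higher in NP and the tropomyosin Tpm2 differed by 4.85. Desmin (Des), calponin (Cnn1) and Actg2, other smooth muscle genes, were at background in both tissues. Actin genes of blood cells ran the other way: Lcp1, an actin bundler of leukocytes, differed by -6.03. Tmsb4x, which binds free actin, differed by -2.72, a lower bound because 1 AF array was within 0.02 of its highest value. In all, 5 of 29 were higher in NP and 4 in AF, which is not read as a result about the list.

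Proinflammatory mediators were more often higher in AF, 7 of 33 against 3 in NP (2 without AF array 3). The chemokine Cxcl12, which retains blood-forming cells in marrow, read 8.56, 9.05 and 10.82 in AF and 4.95, 4.50 and 4.28 in NP (-4.90, SE 0.53, adjusted p = 1.00e-06). Its receptor Cxcr4 differed by -4.28 and the cytokine Il1b by -4.79, each with 2 of 3 NP arrays above background. These genes moved with the marrow markers, and that part was not tested. In NP, Tnfrsf11b (osteoprotegerin), the decoy that blocks osteoclast formation, read 3.62, 2.50 and 2.70 in AF and 9.58, 8.89 and 9.23 in NP (6.29, SE 0.33). The syndecan Sdc4 differed by 5.06 and the receptor Tlr4 by 3.62. Il6, Il1a, Cxcl1 and Nos2 were at background in both tissues. Interferon response genes gave 2 of 16 in each direction, with Ifit3 higher in NP (3.40) and Psmb8, a subunit of the immunoproteasome, at least 2.19 higher in AF.

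**Figure D4:**
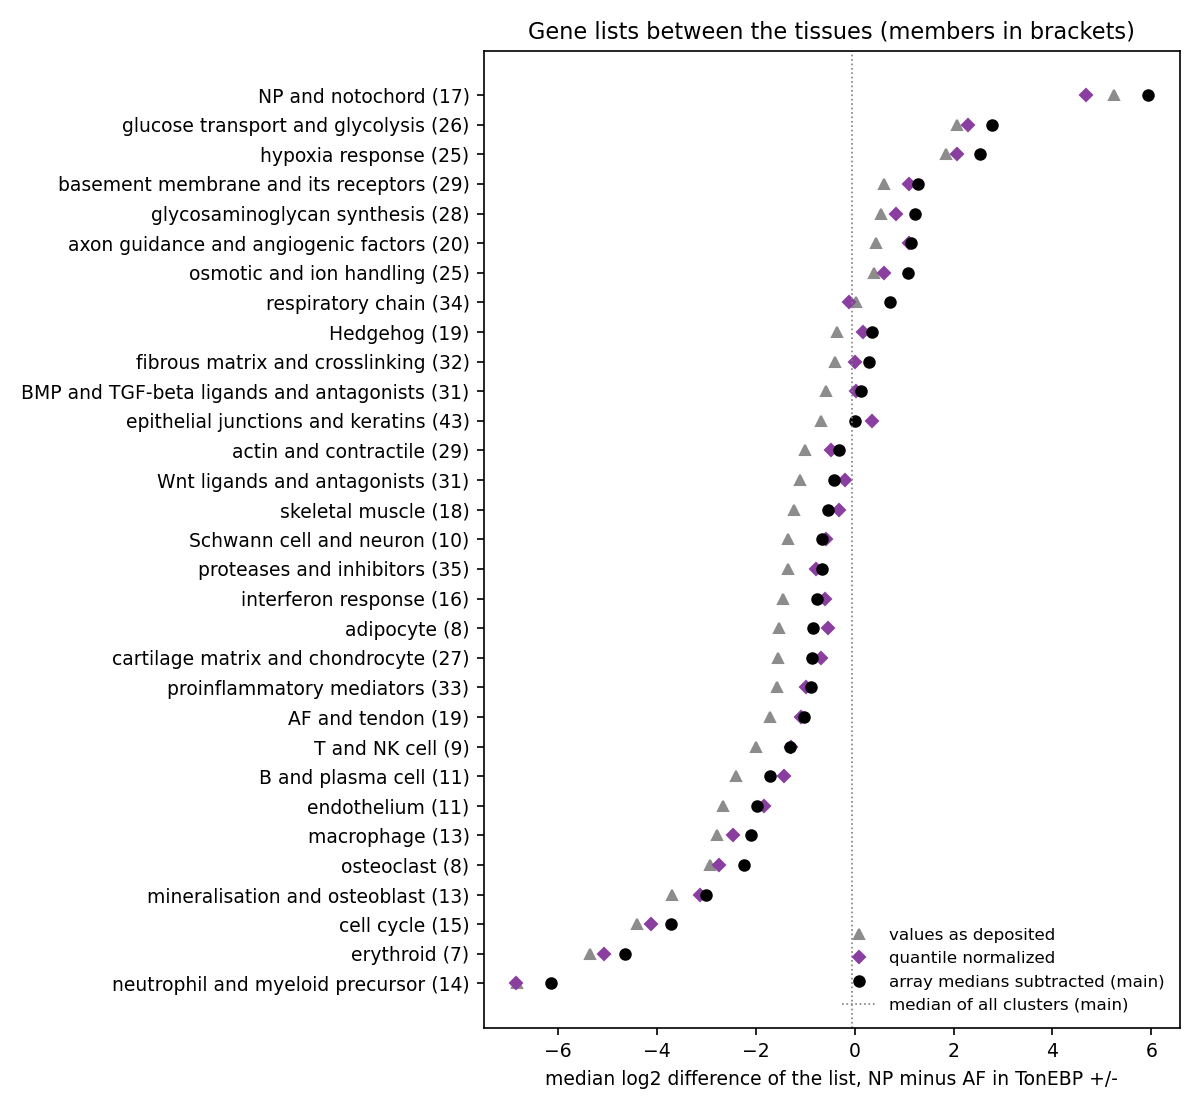
Median NP minus AF difference on the log2 scale (horizontal axis) of each gene list, with circles for array medians subtracted, diamonds for quantile normalization and triangles for values as deposited. The NP and notochord list lies highest (5.93) and the neutrophil list lowest (-6.13), and the respiratory chain median turns from 0.71 to -0.11 with quantile normalization. The Hedgehog, fibrous matrix, BMP and epithelial medians lie above 0 as analysed and below 0 as deposited.

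Beyond the lists, the 10 largest NP differences among clusters above background on all 6 arrays were Tmem163, Ppp1r3c, Slc15a5, Slc12a2, Inmt, Sparcl1, Fhl1, Lgals3, Susd5 and Palld. Tmem163, a zinc efflux transporter, read 1.08, 1.26 and 1.92 in AF and 10.94, 11.04 and 10.65 in NP (9.46, SE 0.47, adjusted p = 1.69e-10). Ppp1r3c, which targets a phosphatase to glycogen, read 1.82, 1.38 and 1.78 in AF and 10.66, 11.29 and 11.22 in NP (9.40, SE 0.40). Fhl1, a LIM domain protein, differed by 8.68 and the matricellular protein gene Sparcl1 by 8.77. For each of these genes the 3 NP arrays lay far above the 3 AF arrays. The largest lower bounds in NP were Zim1, an imprinted zinc finger gene, at -0.27, -0.55 and 0.40 in AF and 9.78, 9.77 and 10.92 in NP (at least 9.77), and Angptl1 (at least 8.22). Cpxm2, Cdh6, Tppp3, Cox4i2, Fgf1 and Hopx followed with at least 7.17 to 7.85.

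The 10 largest AF differences by the same rule were Col1a1, Cybb, Mpo, Chad, Elane, Lyz2, Hp, Chil3, Ly6e and H2ac15. Cybb, the phagocyte oxidase subunit, read 11.67, 11.60 and 12.01 in AF and 3.93, 2.57 and 4.31 in NP (-8.16, SE 0.45). Apart from Col1a1 and Chad, most are known from myeloid cells. The largest lower bounds in AF were those of Camp, Ibsp, Acp5, Tnc, Mmp13, Jchain, Cnmd and the ubiquitin-conjugating enzyme Ube2l6, from 8.25 to 5.53. Col1a1, Chad, Tnc, Mmp13, Ibsp and Cnmd are the matrix and matrix-degrading genes among these 18.

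Promoters of the 2 sets also differed in base composition, which the choice of genes did not use. Of 1425 named genes higher in NP under the 4-scaling rule 1108 have a RefSeq promoter, and of 983 higher in AF 802. Median GC content was 62.7% in the NP set, 55% in the AF set and 57% over all 15691 promoters, and CG dinucleotides numbered 20, 9 and 14 per 300-base promoter. A promoter with no more than 3 CG dinucleotides was found for 5.6% of the NP set, 22.8% of the AF set and 22.9% of all. The NP-high genes therefore had CG-rich promoters more often than all genes did, as a description with no test. Of all 22206 clusters, 10642 were above background on all 3 arrays of a tissue, against 1501 of the 1536 NP-high ones. A reference of only such clusters was not made. TATAAA was found in 6.32%, 15% and 13.1%, the GLI core TGGGTGG in 10.3%, 13.6% and 9.59%, and the SOX core AACAAT in 5.23%, 7.11% and 9.18%. The TonE element that TonEBP binds was found in 3.43%, 4.49% and 4.25%. Both strands were searched for each motif, and overlaps between motifs were not removed.

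The tissue difference was set against the same difference in WT mice, whose 6 arrays share no sample with it. Both contrasts came from the same fit and shared the spread of each cluster, so their calls are not independent tests. In WT, 33.7% of all clusters were called higher in NP and 31.3% higher in AF. All 1536 clusters higher in NP under the 4-scaling rule were called in that direction in WT, as were 1011 of the 1081 higher in AF (93.5%). Across clusters, which are not independent replicates, the contrasts of the genotypes correlated at 0.922. Genes such as Krt19 (11.04 in TonEBP +/-, 8.93 in WT), Egln3 (6.99 and 6.97) and Slc12a2 (9.03 and 7.81), were higher in NP in both genotypes.

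The difference between the genotypes was tested as an interaction of tissue with genotype. It was called for 162 clusters (0.73%), with the NP minus AF difference lower in TonEBP +/- for 142 (0.639%) and higher for 20 (0.0901%). The stricter test, for a change beyond 2-fold, called 0 clusters as analysed and 0 as deposited. It called 1 under interquartile scaling and 1 after quantile normalization. Of the 142, 124 were already higher in AF in WT mice, so their distance between the tissues was wider in TonEBP +/-. Mpo read 10.12, 9.63 and 10.65 in AF and 6.40, 7.00 and 6.18 in NP of WT mice, against 11.18, 10.92 and 11.53 and 3.44, 1.99 and 4.28 in TonEBP +/-. The tissue difference was -3.61 in WT and -7.97 in TonEBP +/- (change -4.36, adjusted p = 0.0106). Of 14 neutrophil markers 8 were called, of 15 cell cycle genes 5. The neutrophil list mean was 7.49 to 7.99 in AF and 3.94 to 5.40 in NP of WT mice, beside 8.54 to 9.43 and 1.75 to 3.35 in TonEBP +/-. The genotypes' ranges did not overlap in either tissue. The NP keratin mean was 2.61 on AF WT array 1 and 0.39 and 0.47 on the other AF WT arrays. The part of these marker differences in the interaction calls was not tested.

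Of the 20 clusters with a higher difference, Htra1 read 6.96, 6.27 and 6.54 in AF and 11.43, 11.48 and 11.54 in NP of WT mice. Its difference was 4.89 in WT and 7.70 in TonEBP +/- (change 2.80, SE 0.36, adjusted p = 0.0106). Fmod changed by 2.23, Acan by 2.08 and Cdon by 2.17. The Htra1 AF arrays were lower in TonEBP +/- than in WT, at 3.53 to 4.45 against 6.27 to 6.96. Slurp1, a secreted Ly6 protein, changed by 2.78 and Serpina1e by 2.61. Col1a1, in the other direction, read 7.27, 3.29 and 6.23 in AF of WT mice and changed by -4.28 (adjusted p = 0.0466, and 0.0595 after quantile normalization). The number of calls depended on single arrays: it was 10 without AF WT array 2, 30 without AF WT array 3, 36 without AF TonEBP +/- array 1, 1327 without array 2 and 84 without array 3 of that group. It was 10 and 12 without NP WT arrays 1 and 2, and 51, 13 and 61 without NP TonEBP +/- arrays 1, 2 and 3. Without AF WT array 1 it rose to 223, and without NP WT array 3 to 214. Htra1 and Mpo were called in all 12 omissions of 1 array, Elane in 10, Camp in 9, Fmod in 6, Slurp1 in 4, and Serpina1e and Col1a1 in 3 each.

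**Figure D5:**
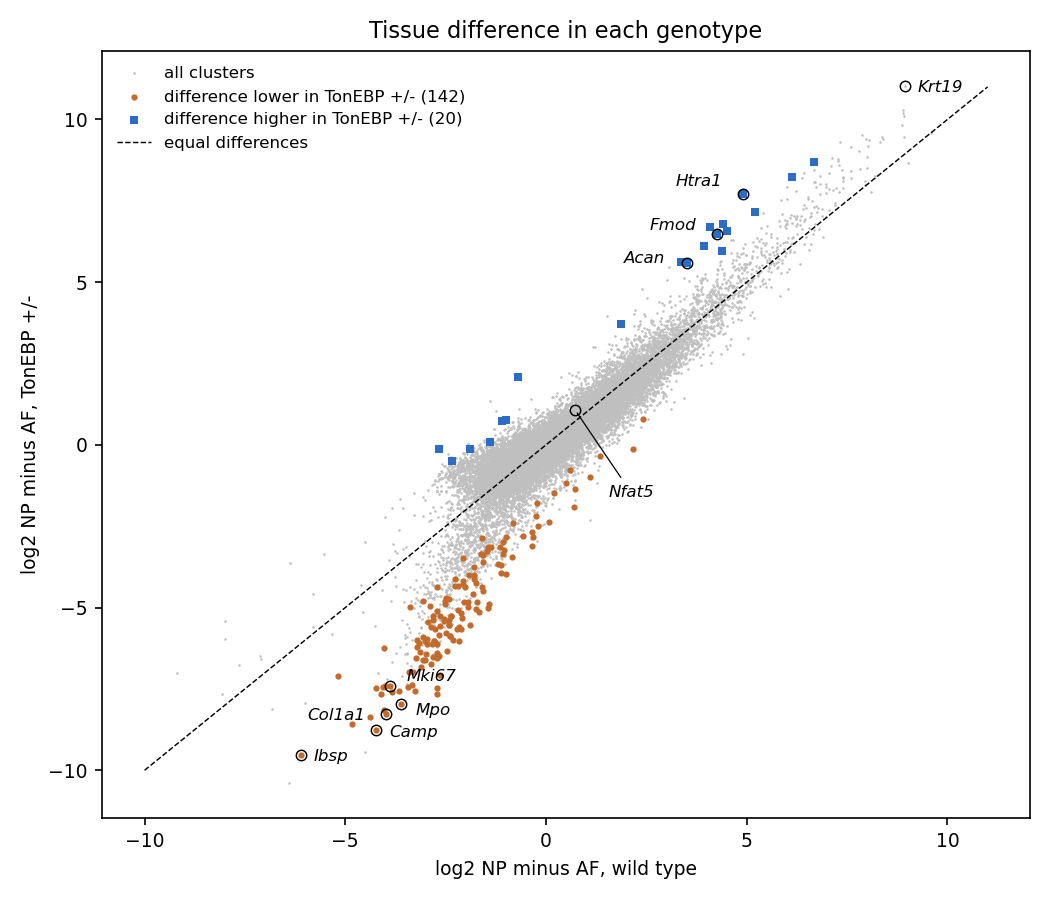
NP minus AF difference on the log2 scale in WT mice (horizontal axis) against TonEBP +/- mice (vertical axis) for all 22206 clusters, with the 142 clusters whose difference was lower and the 20 whose difference was higher in TonEBP +/- in colour, equal differences as a dashed line and the named genes circled. Most points lie along the line (correlation 0.922), Mpo at -3.61 and -7.97 lies below it, and Htra1 at 4.89 and 7.70 above it.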

How the data were processed

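RNA from 12 disc samples was hybridised to Clariom S mouse arrays. The authors deposited log2 values made with RMA in Affymetrix Expression Console, per the submitters' processing notes, with versions not given in the sources used here. RMA quantile normalization normally gives arrays 1 shared distribution, but the deposited arrays differed in median and range, so which arrays were processed together is unknown.

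Of 28846 probe sets, 6640 controls were left out, which left 22206 clusters, 19572 of them with 1 gene symbol in the platform annotation. Each array's median was subtracted. Group means of all 12 arrays were fitted with limma 3.58.1 in R 4.3.3 (eBayes without trend, 8 residual degrees of freedom), adjusted by Benjamini-Hochberg over all clusters and called under 0.05. A second test, limma's treat, asked for a difference beyond 2-fold. The scripts were tested on simulated data with 200 changed clusters. No 2 arrays held identical values. Each sample came from 1 animal and replicate numbers are in accession order. Only 3 arrays per group limit the precision.

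The members and gene lists were chosen with earlier results of these data known. Genes were named by rule: Nfat5, the 10 largest measured differences and 8 largest lower bounds per direction, the 6 largest changes with genotype per direction, and up to 6 passing members per direction of each list with its defining markers. Hif1a, Ldha, Gapdh, Slc2a3, Slc16a1, Slc6a6, Hspa4l, Slc38a2, Cox4i1, Anxa1, Vhl, Egln2, Lrrc8a, Scnn1a, Scube1, the Serpina1 paralogs and the genotype changes of Acan and Cdon were added after their values were seen. Promoters are those of RefSeq on GRCm38.p6. The alternatives were 3 other scalings, a filter on dim clusters, an intensity trend, array weights, the 6 arrays alone and leaving out each array.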

Additional observations from a re-analysis of the deposited data

Results flagged for a closer look

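The NP minus AF difference of 40 named genes or list members changed with genotype by the interaction test (limma, adjusted p from 0.0106 to 0.0466). As analysed, the test for a change beyond 2-fold called 0 clusters. Values are the TonEBP +/- difference minus the WT difference on the log2 scale. For genes of neutrophils, other myeloid cells and plasma cells the changes were Elane -4.96, Camp -4.55, Ncf1 -4.44, Mpo -4.36, Cybb -4.11, Ltf -4.04, Chil3 -3.92, Lcp1 -3.86, Hp -3.77, Ctsg -3.54, Lyz2 -3.54 and Jchain -3.23. For proliferation and histone genes they were H2ac15 -4.76, Mki67 -3.52, Rrm2 -2.60, Ube2c -2.57 and Ccnb2 -2.07. Bone, matrix and osteoclast genes gave Col1a1 -4.28, Tnc -3.96, Atp6v0d2 -3.83, Mmp13 -3.74, Ibsp -3.43 and Lum -2.19. Red cell and water channel genes gave Slc4a1 -2.93, Ermap -2.22 and Aqp1 -1.60. Chemokine and interferon-related genes gave Ly6e -4.28, Cxcl12 -3.49, Cxcr4 -2.22 and Psmb8 -1.94. The changes in the other direction were Fhl1 2.00, Acan 2.08, Ndufa4l2 2.13, Cdon 2.17, Fmod 2.23, Anxa8 2.26, Sbsn 2.37, Serpina1e 2.61, Slurp1 2.78 and Htra1 2.80. For 14 of the 40, Camp, Tnc, Atp6v0d2, Mmp13, Ctsg, Ibsp, Jchain, Ube2c, Ermap, Lum, Ccnb2, Psmb8, Aqp1 and Sbsn, at least 1 group was at background on all its arrays, so the value is the fitted change and not a measured size. After quantile normalization 10 were no longer called, H2ac15, Col1a1, Lcp1, Jchain, Slc4a1, Ermap, Lum, Ccnb2, Aqp1 and Anxa8, with adjusted p from 0.0502 to 0.121.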

How the results depend on the processing

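Of 304 genes named or passing in a list, 297 were called, and 254 of them kept direction and call under the 3 other scalings, the 6 arrays alone and each omission of a TonEBP +/- array; the trend, weights, filter and WT omissions were run for counts only. Other scalings took the call from 35 genes, leaving out 1 TonEBP +/- array from 24 and fitting the 6 arrays alone from 5. As deposited, Mkx turned to -0.071 from 0.62 and Epcam to -0.68 from 0.01, both at background. With only the 10642 clusters above background, 7794 differed between the tissues, 5801 higher in NP and 1993 in AF (74.4% in NP against 54.9% over all clusters). In the fit of all clusters, these same clusters had 5768 called higher in NP and 1967 in AF. Array weights, whose estimation stopped short of convergence, raised the interaction calls from 162 to 2469, interquartile range scaling gave 61, and leaving out 1 array gave 10 to 1327; the cause was not tested. No paired analysis was possible because replicate numbers are in accession order and no label ties AF and NP samples to 1 mouse. Of all clusters, 9129 were below background in both tissues, so their differences were not read.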
